A study of Mus musculus with 40 samples.

Results

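The 10 genes described here, Cldn5, Flt1, Pecam1, Cdh5, Robo4, Tek, Kdr, Ly6c1, Slc2a1 and Egfl7, are genes of endothelial cells, the cells that line blood vessels. They were taken by symbol from the 41388 genes counted in each of 40 mouse forebrain RNA-seq libraries, and all 10 were present in the count files. The libraries came from 2 lines of mice at 21 d of age, both sexes, that carried a Cre-dependent EGFP-Rpl10a transgene, a green fluorescent tag on a protein of the large ribosomal subunit. In RBP4-TRAP mice the tag was switched on by Tg(RBP4-cre)KL100, which is active in layer 5 pyramidal neurons, and in VGAT-TRAP mice by a Cre in Slc32a1, which is active in GABAergic neurons. Neither driver is an endothelial one. Each of 5 pools per line, made of forebrains of several mice, was split into 4 fractions. WCH is the whole-cell homogenate, TRAP is RNA bound to ribosomes pulled down by the tag, SNF is the synaptoneurosome fraction (a preparation of pinched-off, resealed synaptic particles), and ST (SynapTRAP) is the same ribosome pulldown done on SNF. This gave 8 groups of 5 libraries, with no group of untagged mice among them.

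Brain endothelial cells form the blood-brain barrier. Claudin-5 (Cldn5) seals their tight junctions, VE-cadherin (Cdh5) and PECAM-1 (Pecam1) hold adjacent cells together, and GLUT1 (Slc2a1) carries glucose into the brain. Kdr and Flt1 encode the VEGF receptors 2 and 1, Tek the angiopoietin receptor TIE2 and Robo4 a roundabout family receptor of vessels. Egfl7 encodes a secreted vascular protein and hosts the microRNA miR-126, and Ly6c1 is a surface antigen carried by brain endothelium. Slc2a1 is also made by astrocytes, in a differently glycosylated form.

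ETS factors are the transcription factors best known for driving this gene class, through a GGAA core. To show what such a letter string looks like in these genes, RefSeq promoters (250 bases before to 50 bases after a start, GRCm38.p6) were searched on both strands for CCGGAA and CAGGAA, which do not overlap each other. Promoters were at hand for 8 of the 10 members, all but Pecam1 and Cdh5. CCGGAA was in 14.9% of all 32851 promoters and, among members, in that of Kdr. CAGGAA was in 30.6% of all promoters and in those of Robo4, Tek and Egfl7. A match is a string of letters and not a measured binding site. Below are 30-base windows, 5′ to 3′ on the strand of the gene, with the matched letters, or their reverse complement, in capitals.
Kdr, chr5:75978591-75978620, minus strand: cgcccggcacagTTCCGGggtagtggggga
Tek, chr4:94739218-94739247, plus strand: atacccctattgTTCCTGaaaatgctgacc
Robo4, chr9:37401910-37401939, plus strand: atgagggccaggCAGGAAgcatccgtttcc
Egfl7, chr2:26580981-26581010, plus strand: ctgggagacaaaCAGGAAggccatctctct

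Library totals ran from 14259535 to 22037703 counts, and from 8950847 to 21976631 after 390 mitochondrial, rRNA and tRNA genes were left out. Levels are given as counts-per-million (cpm), relative to the latter total, so 1 count was worth 0.0455 to 0.112 cpm. The pulldowns were checked with Slc32a1, the vesicular GABA transporter, which had a median of 56.8 cpm in VGAT TRAP and 2.37 cpm in RBP4 TRAP, and with Fezf2, a transcription factor of layer 5 neurons, which had 5.69 and 120 cpm. In ST the medians of Slc32a1 were 45.5 cpm (VGAT) and 16.7 cpm (RBP4). Fezf2 did not set the ST groups apart, with medians of 17.2 cpm in VGAT ST, 17.6 cpm in RBP4 ST and 15.8 cpm in RBP4 SNF, and in RBP4 ST it was high in replicate 5 (46.4 cpm against at most 19.5 cpm in the other 4). The library labelled RBP4 ST replicate 4 had 49.9 cpm of Slc32a1, against at most 19.7 cpm in the other RBP4 ST libraries. ST results of that line are therefore also given without replicate 4. Pool 3 stood apart in both lines, with mitochondrial genes taking 40.2% (RBP4) and 41.9% (VGAT) of SNF counts against 11.2% to 19.4% in the other pools, and 15.8% and 19.0% of ST counts against 2.71% to 7.08%. The ST libraries stood far apart in the endothelial genes themselves. Summed over the 10 members, RBP4 ST replicate 2 held 476 cpm and the other 4 RBP4 ST libraries 28.6 to 124 cpm, and VGAT ST replicates 1 and 2 held 363 and 178 cpm against 43.7 to 78.8 cpm in the other 3.

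Mean levels had the order TRAP < WCH < SNF < ST for 9 of the 10 members in both lines. Egfl7 was the exception, with its lowest mean in WCH in both. In whole homogenate the members were scarce, at summed levels of 30.2 to 41.3 cpm in RBP4 WCH and 27.6 to 35.5 cpm in VGAT WCH. Per kilobase of exon, Slc2a1 had the highest mean level of the 10 in WCH (4.32 cpm per kb for RBP4, 3.76 for VGAT). Reads of these libraries favour the 3′ end, per the study, so counts need not scale with exon length and levels of different genes compare only roughly. Egfl7 followed with 2.61 and 2.42 cpm per kb, then Ly6c1 with 2.14 and 2.59. The remaining 7 lay between 0.112 and 0.461 cpm per kb in RBP4 WCH and between 0.0499 and 0.358 in VGAT WCH, with Robo4 lowest in both. In ST Ly6c1 and Slc2a1 had the highest means per kilobase, and their order turned with single libraries. Ly6c1 had means of 14.6 and 16.1 cpm per kb against 10.7 and 10.4 for Slc2a1, and 6.63 against 6.97 (RBP4) and 7.87 against 6.87 (VGAT) without the library with the most of both, RBP4 ST replicate 2 or VGAT ST replicate 1. The medians of the 5 libraries were 8.69 against 7.71 (RBP4) and 5.34 against 6.53 (VGAT) cpm per kb.

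**Figure D1:**
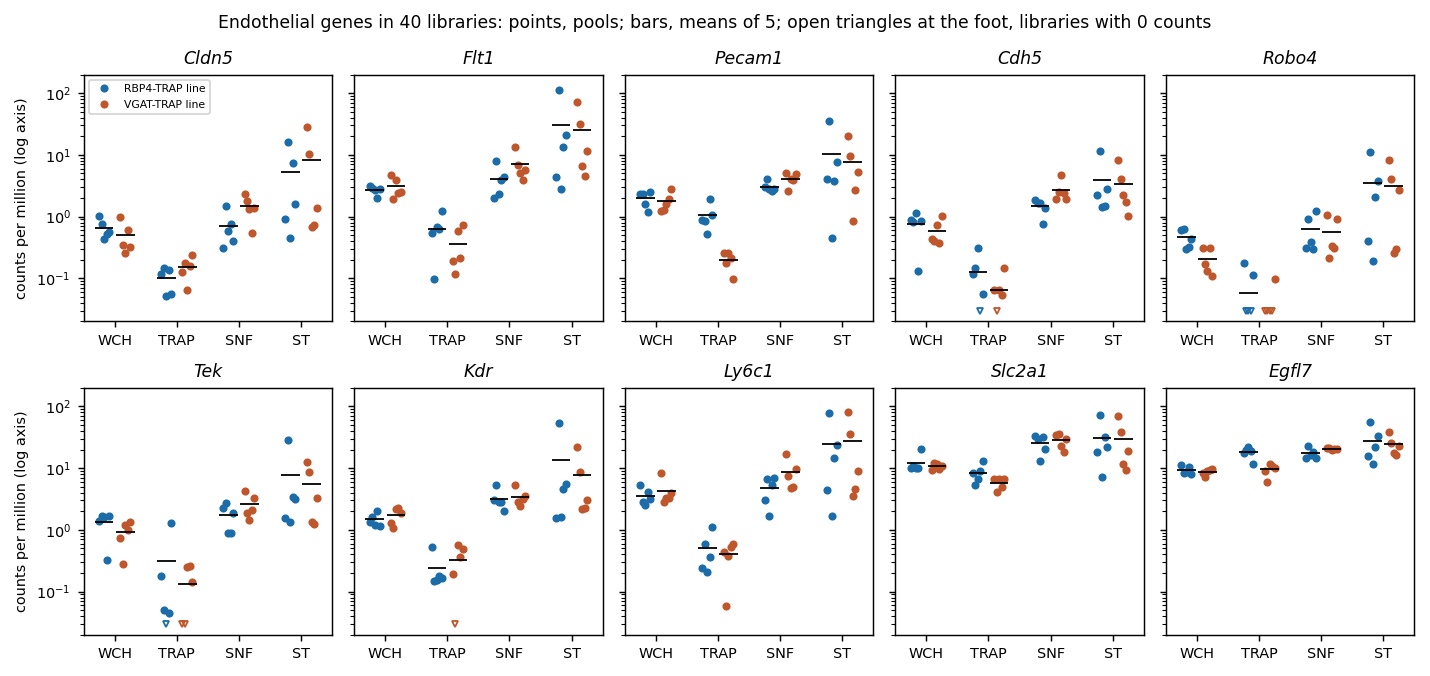
Level of each of the 10 endothelial genes (counts-per-million, log axis) in 4 fractions, RBP4-TRAP and VGAT-TRAP shown separately, with 1 point per pool and a bar at the mean of 5. TRAP is the lowest fraction for 9 of the 10 genes in both lines, Egfl7 is not depleted there, and the ST points of one gene span up to 78.2 fold.

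The first comparison, TRAP against WCH, asks which transcripts the tagged ribosomes of the neurons held relative to the homogenate. Mean levels of 9 of the 10 members were lower in TRAP in both lines, though not all of these differences passed the test. In the RBP4 line 6 of 10 members fell (Cldn5, Flt1, Cdh5, Robo4, Kdr and Ly6c1) and 1 rose (Egfl7), where 31.5% of all 17043 genes tested fell and 8.37% rose. In the VGAT line 7 of 10 fell (Flt1, Pecam1, Cdh5, Tek, Kdr, Ly6c1 and Slc2a1) and none rose, where 41.8% of 16990 genes fell and 21.0% rose. The median log2 fold change of the members was -2.34 and -2.73, against -0.34 and -0.31 for all genes tested. Per the study, TRAP was captured from an aliquot of WCH, so both libraries of a pool started from the same cells. Between pools, fewer cells of a type and less RNA per cell cannot be told apart in bulk samples.

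Ly6c1 fell in both lines. In pool order from replicate 1 to 5, its level in RBP4 TRAP was 0.238, 0.594, 0.208, 0.364 and 1.12 cpm, and in RBP4 WCH 5.39, 2.80, 2.49, 4.13 and 3.15 cpm. In VGAT TRAP it was 0.446, 0.0594, 0.383, 0.528 and 0.583 cpm, and in VGAT WCH 8.32, 2.85, 3.34, 3.24 and 3.97 cpm. TRAP and WCH libraries did not overlap in either line, and edgeR gave log2 fold changes of -2.82 ± 0.74 (SE, adjusted p = 0.00471) and -3.39 ± 0.82 (adjusted p = 0.00126). Flt1 fell in both lines too, with means of 0.636 ± 0.405 (SD, n = 5) in RBP4 TRAP against 2.69 ± 0.435 cpm in WCH, and 0.365 ± 0.270 against 3.10 ± 1.18 cpm in the VGAT line. Its log2 fold changes were -2.08 ± 0.77 (adjusted p = 0.0355) and -3.02 ± 0.74 (adjusted p = 0.00137).

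Several members were down to single counts in TRAP. Claudin-5 had 2, 3, 1, 3 and 1 counts in the RBP4 TRAP libraries and 2, 3, 1, 3 and 5 in the VGAT ones, and each pool had more in its WCH library. It passed the test in the RBP4 line (log2 fold change -2.57 ± 0.85, adjusted p = 0.0203) but not in the VGAT line (-1.62 ± 1.06, adjusted p = 0.186). Robo4 had 0 counts in 3 RBP4 TRAP libraries and in 4 VGAT TRAP libraries. Pooled over libraries its TRAP level was 0.114 of the WCH level for RBP4 (5 against 36 counts, 95% exact interval 0.0349 to 0.291) and 0.112 for VGAT (2 against 17 counts, 0.0126 to 0.474). These intervals cover counting error only. In edgeR the log2 difference was -2.93 ± 1.05 (adjusted p = 0.0295) and -2.79 ± 1.26 (adjusted p = 0.0589). Cdh5 had 12 counts in all RBP4 TRAP libraries against 61 in WCH, and 6 against 50 in the VGAT line, with log2 fold changes of -2.54 ± 0.72 (adjusted p = 0.00774) and -2.98 ± 0.71 (adjusted p = 0.00108).

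The receptor kinases Kdr and Tek were low in TRAP as well. Kdr had 0.536, 0.149, 0.156, 0.182 and 0.168 cpm in RBP4 TRAP and 1.35, 1.62, 1.22, 2.03 and 1.17 cpm in RBP4 WCH, with no overlap. It had log2 fold changes of -2.63 ± 0.84 (adjusted p = 0.0166) and -2.38 ± 0.66 (adjusted p = 0.00365) in the RBP4 and VGAT lines. Tek did not pass in the RBP4 line (-2.13 ± 0.92, adjusted p = 0.0673) and did in the VGAT line (-2.67 ± 0.78, adjusted p = 0.00554). Its RBP4 TRAP counts were 3, 1, 0, 1 and 23, so replicate 5 stood apart. The same library had the highest summed levels of 8 oligodendrocyte genes (5642 cpm against 418 to 974 cpm in the other 4), 10 astrocyte genes (3393 against 690 to 1131 cpm) and 13 mural cell genes (46.2 against 15.1 to 25.6 cpm). Their part in the Tek value was not tested. With the pool number as a block, Tek was called in the RBP4 line (log2 fold change -2.37 ± 0.82, adjusted p = 0.0233) and Robo4 in the VGAT line (-2.90 ± 1.10, adjusted p = 0.0258).

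Slc2a1, Egfl7 and, in one line, Pecam1 departed from this pattern. The glucose transporter Slc2a1 kept 8.47 ± 2.91 cpm in RBP4 TRAP against 12.3 ± 4.49 cpm in WCH, a log2 difference of -0.54 ± 0.41 that did not pass (adjusted p = 0.297). Among VGAT pools it fell from 10.7 ± 1.25 to 5.78 ± 1.22 cpm (log2 fold change -0.89 ± 0.39, adjusted p = 0.0490), a call lost with TMM factors and without any one of replicates 2 to 5. Egfl7 rose in RBP4 TRAP, where its levels were 17.8, 20.0, 21.7, 19.1 and 11.8 cpm against 11.4, 8.34, 8.57, 10.6 and 7.90 cpm in WCH. TRAP was higher in 5 of 5 pools and the libraries did not overlap (log2 fold change 0.95 ± 0.30, adjusted p = 0.0158). In VGAT TRAP Egfl7 was at 9.52 ± 2.28 cpm against 8.68 ± 0.954 cpm (log2 difference 0.13 ± 0.20, adjusted p = 0.571). Egfl7 lies at chr2:26580014-26593120 and shares 264 exon bases with Gm20532 on the same strand and 64 with Agpat2 on the other. Reads on shared bases could not be assigned, Gm20532 had 0 counts in every group, and Agpat2 had means of 0.257 to 1.17 cpm. Pecam1 had 0.894, 0.842, 0.519, 1.96 and 1.06 cpm in RBP4 TRAP against 2.29, 2.30, 1.58, 1.18 and 2.47 cpm in WCH, and did not pass (log2 difference -0.88 ± 0.65, adjusted p = 0.286). Among VGAT pools it fell by 3.13 ± 0.67 on the log2 scale (adjusted p = 0.000390).

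Genes of other non-targeted cells were lower in TRAP too. In the RBP4 and VGAT lines, respectively, 8 and 10 of 10 astrocyte genes, 10 and 10 of 10 microglia genes, 7 and 8 of 8 oligodendrocyte genes and 6 and 6 of 6 blood cell genes tested fell, and none rose. Of all genes 31.5% and 41.8% fell. Of 10 neuron genes 3 rose and 3 fell in the first line, and 5 rose and 2 fell in the second.

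Without RBP4 pool 4, 2 members were called in TRAP against WCH, Cdh5 and Ly6c1. The 5 others lost the call at adjusted p of 0.0519 to 0.0907 while their log2 differences stayed near the full ones, at -2.76 for Cldn5, -2.17 for Flt1, -2.70 for Robo4, -2.40 for Kdr and 0.98 for Egfl7. For VGAT, leaving out a pool left 6 or 7 calls. Of the genes called in the RBP4 line 21.0% were higher, and 46.4% with TMM factors, which moved the median of all genes to -0.05. The VGAT shares were 33.4% and 47.4%, with a median of -0.06. Under TMM factors Flt1 (RBP4) and Slc2a1 (VGAT) were lost, and 5 and 6 members still fell.

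**Figure D2:**
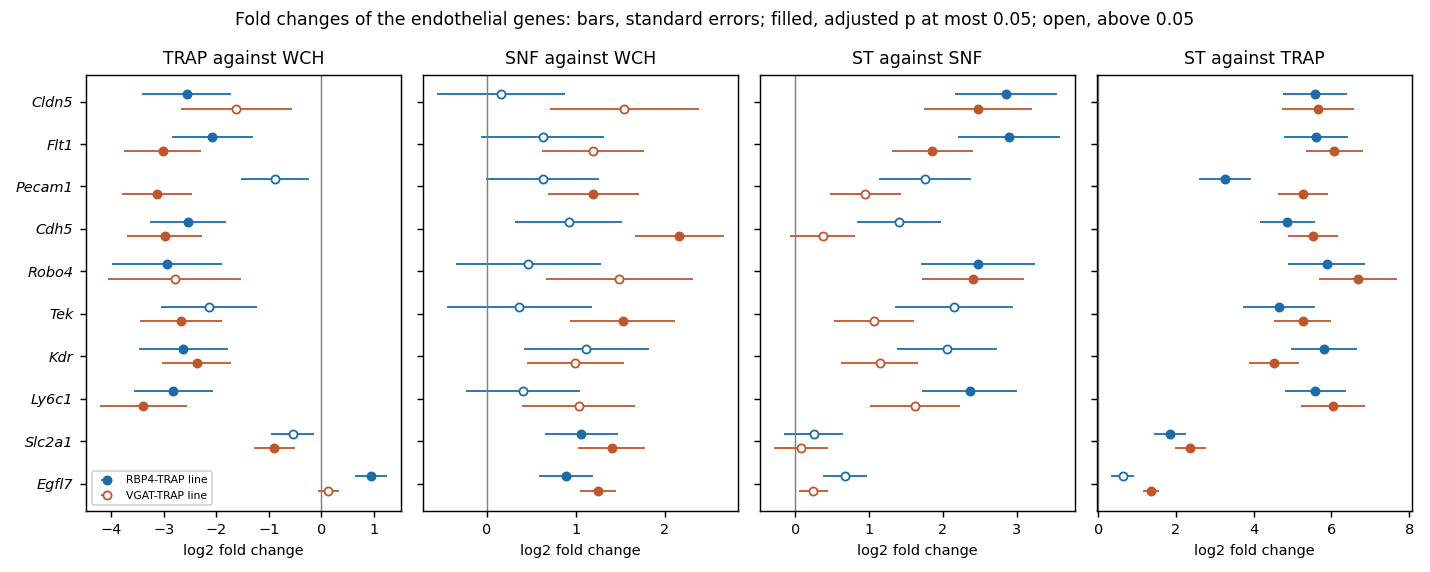
Log2 fold change of each endothelial gene (x axis) in 4 comparisons for both lines, with bars of 1 standard error, filled points for an adjusted p of at most 0.05 and open points above it. Most genes lie to the left in TRAP against WCH, slightly right in SNF against WCH, and far right in ST against TRAP, where 9 and 10 of 10 were called higher.

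SNF against WCH asks what the synaptoneurosome preparation enriches before any pulldown. All 10 members had a positive log2 fold change in both lines, but few passed in the RBP4 line. The sign for Cldn5 there (0.16 ± 0.71, adjusted p = 0.863) turned to -0.29 without pool 2 and to -0.16 with the pool as a block, and in RBP4 pool 1 6 of 10 members were higher in SNF. Egfl7 and Slc2a1 rose there (log2 fold changes 0.89 ± 0.30, adjusted p = 0.0181, and 1.06 ± 0.41, adjusted p = 0.0346), which is 2 of 10 where 13.4% of all genes rose. In the VGAT line 5 of 10 rose (Egfl7, Tek, Slc2a1, Cdh5 and Pecam1), where 19.3% of all genes did. The median over members was 0.63 and 1.32, against -0.50 and -0.52 for all genes.

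VE-cadherin gave the largest of these values. Cdh5 was at 1.90, 2.53, 4.80, 2.43 and 1.90 cpm in VGAT SNF and at 0.431, 0.400, 0.720, 0.367 and 1.03 cpm in VGAT WCH, with no overlap (log2 fold change 2.16 ± 0.49, adjusted p = 0.000647). In the RBP4 line its 5 pools also all had more in SNF, at means of 1.46 ± 0.431 against 0.767 ± 0.380 cpm (log2 difference 0.92 ± 0.60, adjusted p = 0.204). Egfl7 was the most even member, at 21.5, 21.0, 19.3, 20.4 and 20.6 cpm in VGAT SNF against 8.20, 7.25, 9.03, 9.41 and 9.52 cpm in WCH (log2 fold change 1.24 ± 0.20, adjusted p = 1.62e-05). Slc2a1 went from 10.7 ± 1.25 to 28.3 ± 7.55 cpm in the VGAT line (1.4 ± 0.38, adjusted p = 0.00264). Tek rose by 1.52 ± 0.59 (adjusted p = 0.0278) and Pecam1 by 1.20 ± 0.51 (adjusted p = 0.0434) on the log2 scale.

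The remaining members did not pass. For RBP4 their log2 differences, beside those of Cldn5 and Cdh5, were 0.63 for Flt1 and Pecam1, 0.47 for Robo4, 0.37 for Tek, 1.12 for Kdr and 0.41 for Ly6c1 (adjusted p of 0.186 to 0.722). Among VGAT pools Flt1, Robo4, Kdr and Ly6c1 were higher in 5 of 5 pools and Cldn5 in 4 of 5, with adjusted p from 0.0729 to 0.158. With the pool number as a block Cldn5 (adjusted p = 0.0480) and Flt1 (adjusted p = 0.0406) were called too. The 2 RBP4 calls were both lost without pool 4 and when no genes were left out of the library totals, and Slc2a1 alone was lost without pool 1 or 2. The VGAT count was 3 without pool 1, 2 or 5. The higher ones were 27.1% (RBP4) and 29.9% (VGAT) of all genes called, and 51.9% and 46.9% with TMM factors, which moved the median of all genes to -0.17 in both. Pecam1 and Tek were the calls that came and went in the VGAT line.

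Other vascular and glial lists moved beside the members. Summed levels of 10 astrocyte genes were 13662 to 36498 cpm in RBP4 SNF against 4048 to 8547 cpm in WCH, and 12070 to 35460 against 4006 to 6810 cpm in the VGAT line. All 10 of these genes were called higher in the VGAT line and 9 of 10 in the RBP4 line. Of 10 microglia genes 9 and 10 rose, of 8 oligodendrocyte genes 6 and 7, and of 13 mural cell genes (pericytes and vessel muscle) 4 and 7. Of all genes 13.4% (RBP4) and 19.3% (VGAT) rose. Globin-rich blood cell genes went the other way, with 5 of the 6 tested lower in both lines, the beta globin gene Hbb-bt falling by 2.03 (adjusted p = 0.000777) and 1.92 (adjusted p = 0.000688) on the log2 scale. Ptprc, the leukocyte antigen CD45, was the exception in the VGAT line (log2 fold change 1.33, adjusted p = 0.000507). The part of these cells in the members' values was not tested.

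ST against SNF asks what the tagged ribosomes held within the synaptoneurosome fraction. Here endothelial genes were higher on average, but both size and direction varied from pool to pool. Summed over the 10 members, ST was above SNF in 3 of 5 RBP4 pools and 2 of 5 VGAT pools (median ratios 1.54 and 0.970). In the RBP4 line 4 of 10 members rose (Cldn5, Flt1, Robo4 and Ly6c1), where 5.64% of all genes did, and in the VGAT line 3 of 10 (Cldn5, Flt1 and Robo4), where 16.3% did. The median over members was 2.10 and 1.11, against -0.05 and 0.08 for all genes. No member fell. Of other cells, summed oligodendrocyte genes were higher in ST in all 5 pools of both lines (ratios of 2.0 to 2.64 and 1.98 to 2.87), although 3 of the 8 rose and 1 fell in the RBP4 line and 3 rose and 2 fell in the VGAT line. Summed astrocyte genes were higher in ST in 1 of 5 RBP4 pools and 2 of 5 VGAT pools (median ratios 0.699 and 0.696). Summed microglia genes were lower in all 5 pools of both lines (median ratios 0.514 and 0.556), and so were summed neuron genes (0.440 to 0.831 and 0.444 to 0.811). Their part in the members' values was not tested.

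Flt1 shows how this arose. Its RBP4 ST levels were 4.37, 113, 2.78, 13.6 and 20.7 cpm, and the SNF libraries of the same pools had 2.0, 8.04, 2.35, 3.90 and 4.32 cpm. In the VGAT line ST had 72.9, 32.0, 6.61, 4.54 and 11.3 cpm and SNF 13.3, 6.95, 5.14, 3.93 and 5.70 cpm. ST was higher in 5 of 5 pools of both lines, while the groups overlapped in both, and replicate 2 of the RBP4 line and replicates 1 and 2 of the VGAT line lay far above the rest. The log2 fold changes were 2.90 ± 0.69 (adjusted p = 0.00836) and 1.86 ± 0.55 (adjusted p = 0.0137).

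Claudin-5 had 0.920, 16.0, 0.452, 7.32 and 1.63 cpm in RBP4 ST against 0.308, 1.5, 0.587, 0.751 and 0.408 cpm in SNF. In VGAT ST it had 28.0, 10.3, 0.678, 0.744 and 1.37 cpm against 2.28, 1.81, 1.34, 0.550 and 1.37 cpm in SNF. It was higher in 4 of 5 pools in both lines, with log2 fold changes of 2.85 ± 0.69 (adjusted p = 0.00886) and 2.48 ± 0.73 (adjusted p = 0.0135). Robo4 rose by 2.47 ± 0.77 (adjusted p = 0.0389) and 2.41 ± 0.69 (adjusted p = 0.0111). Its 3 lowest ST libraries, RBP4 replicate 3 and VGAT replicates 3 and 4, had 3, 3 and 4 counts. Ly6c1 rose in the RBP4 line (2.36 ± 0.65, adjusted p = 0.0201) and missed in the VGAT line (1.62 ± 0.61, adjusted p = 0.0532).

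The other 6 members did not pass in either line. Kdr came close in the RBP4 line (2.05 ± 0.68, adjusted p = 0.0506), where replicate 2 had 53.3 cpm and the others 1.55 to 5.64 cpm. Pecam1 had 35.4 cpm in RBP4 ST replicate 2 and 0.452 cpm in replicate 3, the widest span of any member (log2 difference 1.75 ± 0.62, adjusted p = 0.0687). Tek had 28.9 cpm in replicate 2 and at most 3.39 cpm in the others (2.14 ± 0.80, adjusted p = 0.0845). Cdh5 had 11.4 cpm in replicate 2 and 1.42 to 2.76 cpm in the others (1.4 ± 0.57, adjusted p = 0.117). For VGAT pools these differences were 1.14 ± 0.52 for Kdr, 0.95 ± 0.48 for Pecam1, 1.07 ± 0.54 for Tek and 0.37 ± 0.44 for Cdh5, and that of Cdh5 turned to -0.36 without pool 1. Slc2a1 and Egfl7, the members most abundant in SNF, had log2 differences of 0.25 ± 0.40 and 0.68 ± 0.30 in RBP4 pools and 0.08 ± 0.36 and 0.24 ± 0.19 in VGAT pools. Between ST and SNF of one pool, all 10 members were higher in ST in RBP4 pools 2 and 5 and VGAT pools 1 and 2, but 3 of 10 in RBP4 pool 3, and 1 and 2 of 10 in VGAT pools 3 and 4. The median ratio over members was 10.3 in RBP4 pool 2 and 0.742 in RBP4 pool 3. Pool 3 is the one with the high mitochondrial share, and without it Cldn5, Flt1, Pecam1, Robo4 and Ly6c1 were called in both lines.

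**Figure D3:**
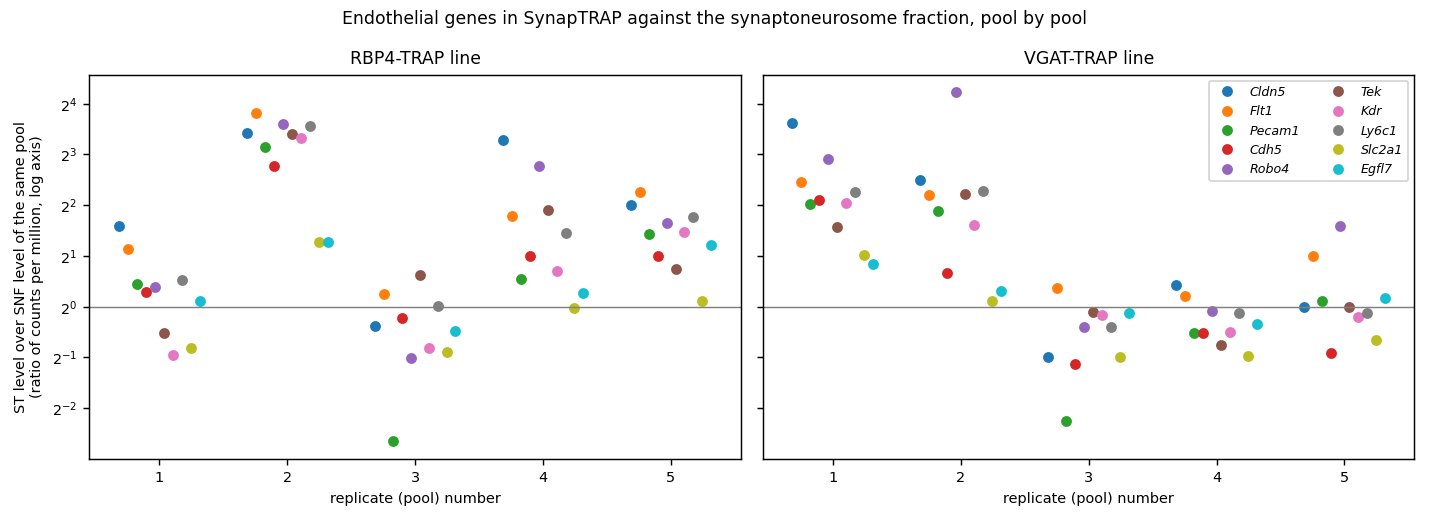
Ratio of the ST to the SNF level of the same pool (log axis, 1 marked by a line) for each endothelial gene, by pool number, RBP4-TRAP left and VGAT-TRAP right. All 10 genes lie above 1 in RBP4 pools 2 and 5 and VGAT pools 1 and 2, and most lie below 1 in RBP4 pool 3 and VGAT pools 3 and 4.

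The calls depended on these libraries. Without the library RBP4 ST replicate 2, 1 member was called (Cldn5, log2 fold change 1.82, adjusted p = 0.0428), while Flt1 was at 1.32 (adjusted p = 0.0776), Ly6c1 at 1.22 (adjusted p = 0.131) and Robo4 at 1.34 (adjusted p = 0.215). Without RBP4 ST replicate 4, whose Slc32a1 level went against its label, 5 members were called, with Kdr added (2.28, adjusted p = 0.0451). Without the whole of pool 4, 1 was called (Flt1), and without pool 2, 2 (Cldn5 and Flt1). On the VGAT side no member was called without pool 1 or without pool 2. With the libraries VGAT ST 1 and 2 both left out, the direction of the Cldn5 difference turned (-0.66, adjusted p = 0.359) and Slc2a1 was called lower (-1.10, adjusted p = 0.00242). The share of all called genes that were higher was 50.8% (RBP4) and 59.3% (VGAT), and 57.0% and 44.5% with TMM factors.

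Levels of other vessel genes stood highest in the same libraries. RBP4 ST replicate 2 was the highest of the 5 for all 10 members, for 25 of 26 other endothelial genes and for 12 of 13 mural cell genes, but for 0 of 10 astrocyte, 0 of 8 oligodendrocyte and 3 of 10 microglia genes. VGAT ST replicate 1 was highest for all 10 members, 23 of 26 other endothelial and 12 of 13 mural cell genes, and for 4 of 10 astrocyte, 0 of 8 oligodendrocyte and 0 of 10 microglia genes. These 2 libraries were also highest, respectively, for 13 and 11 of 16 blood-brain barrier transport and junction genes and 6 and 5 of 7 blood cell genes with counts. The same held for 7 and 7 of 13 ligands and co-receptors and 3 and 1 of 10 neuron genes. The share of all genes highest in these libraries was not counted. Mural cell genes summed to 830 cpm in RBP4 ST replicate 2 and to 120 to 201 cpm in the other 4, and to 361 cpm in VGAT ST replicate 1 against 152 to 207 cpm. Blood cell genes summed to 126 cpm in RBP4 ST replicate 2 against 13.3 to 78.1 cpm, and to 278 and 192 cpm in VGAT ST replicates 1 and 2 against 49.5 to 59.1 cpm. None of the mural cell genes was at 0 in all libraries of any group, and of the blood cell genes Cd3e was at 0 in RBP4 ST and Ly6g in VGAT ST. Whether these cells took part in the ST values was not tested.

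**Figure D4:**
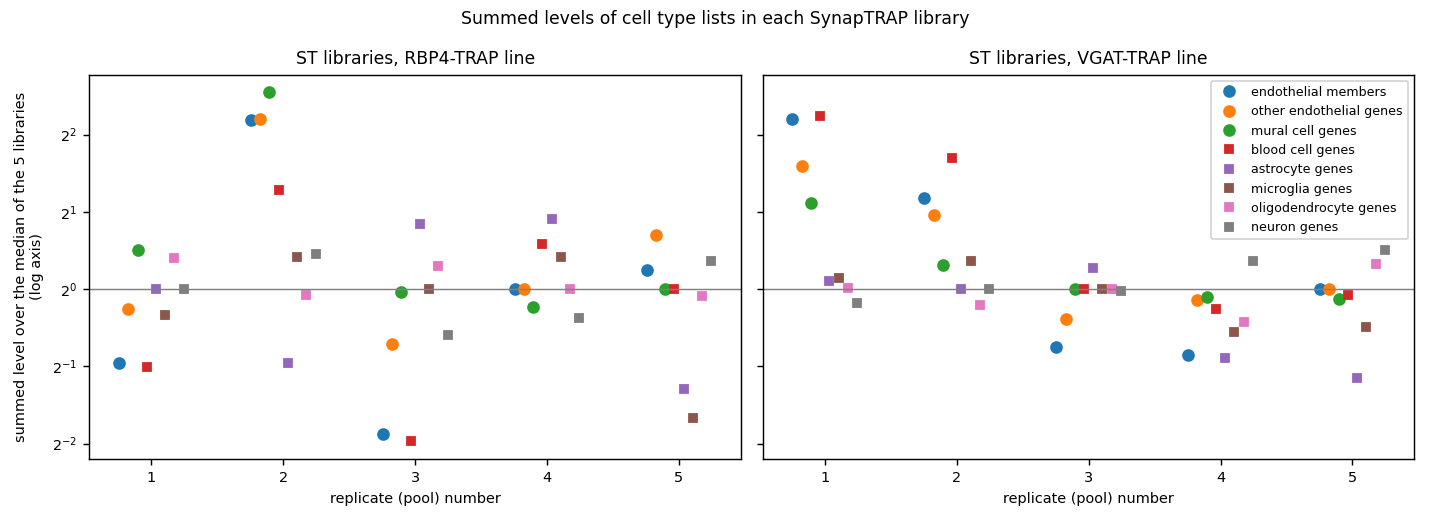
Summed level of each cell type list in each ST library over the median of the 5 libraries of its line (log axis), by pool number. Endothelial and mural cell lists rise together in RBP4 replicate 2 and VGAT replicate 1, where the members reach 476 and 363 cpm, and astrocyte, microglia, oligodendrocyte and neuron lists do not follow that order.

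ST against TRAP sets both pulldowns side by side. Endothelial genes were much higher in the pulldown from SNF, with 9 of 10 members called in the RBP4 line, all but Egfl7, and 10 of 10 in the VGAT line. Of all genes 26.0% and 37.5% were higher. The median over members was 5.22 and 5.39 on the log2 scale, against -0.07 and 0.08 for all genes. Every ST library was above every TRAP library for 7 of 10 members (RBP4) and 10 of 10 (VGAT), a pattern that 13.6% and 24.3% of all genes tested showed. Glial genes were higher too, with all 10 astrocyte, 10 microglia and 8 oligodendrocyte genes called in both lines. The median ratio of summed levels within pools was 46.4 (RBP4) and 50.4 (VGAT) for oligodendrocyte, 14.7 and 18.6 for astrocyte and 13.0 and 5.58 for microglia genes. It was 3.35 and 4.08 for the 10 members, and 13.5 and 14.6 without Slc2a1 and Egfl7. Their part in the members' values was not tested.

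Flt1 rose by 5.60 ± 0.81 (adjusted p = 6.10e-06) and 6.07 ± 0.73 (adjusted p = 1.78e-07) on the log2 scale. Ly6c1 rose by 5.58 ± 0.78 and 6.04 ± 0.82, Cldn5 by 5.58 ± 0.83 and 5.64 ± 0.93, and Cdh5 by 4.87 ± 0.71 and 5.52 ± 0.64. For Robo4 the pooled ratio was 75.4 in the RBP4 line (348 against 5 counts, 95% exact interval 32.0 to 234) and 155 in the VGAT line (264 against 2 counts, 42.4 to 1284), intervals that cover counting error only. Of these ST counts 239 were in RBP4 replicate 2 and 147 in VGAT replicate 1, and without those libraries the ratios were 31.1 and 90.4. No VGAT TRAP or WCH library reached the 0.5 cpm of the filter for Robo4 (highest 0.0972 and 0.308 cpm). In that line Robo4 was tested only because of its SNF and ST levels. The same held for Cldn5 and Cdh5 in the VGAT line and for Robo4 in the RBP4 line. Fewer than 3 of their TRAP and WCH libraries reached 0.5 cpm. These members therefore count in the tallies of ST against TRAP only through fractions where they were high. Pecam1 rose by 3.27 ± 0.66 and 5.27 ± 0.65, Tek by 4.64 ± 0.93 and 5.26 ± 0.73, and Kdr by 5.80 ± 0.85 and 4.52 ± 0.64. Slc2a1 differed less, at 1.85 ± 0.42 (adjusted p = 0.000651) and 2.37 ± 0.39 (adjusted p = 1.37e-05). Egfl7 was 0.62 ± 0.30 higher in the RBP4 line (adjusted p = 0.0785) and rose by 1.35 ± 0.20 in the VGAT line (adjusted p = 3.07e-06). These calls did not hang on the high libraries. Without RBP4 ST replicate 2 the same 9 members were called, at 1.23 to 4.73 on the log2 scale, without RBP4 ST replicate 4 9 were called, and without VGAT ST 1 and 2 all 10, at 1.0 to 5.19. The sizes were smaller without the high libraries, with Flt1 at 4.02 and 4.30, Kdr at 3.79 and 2.90 and Cldn5 at 4.55 and 2.51 in the RBP4 and VGAT lines.

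The difference of the differences, ST over SNF divided by TRAP over WCH, tests whether the pulldown acted alike on both starting fractions. It was called higher for 8 of 10 members in both lines, all but Slc2a1 and Egfl7, where 17.1% and 34.7% of all genes were called higher. Genes of other non-targeted cells were called higher as well, in the RBP4 and VGAT lines respectively 7 and 8 of 8 oligodendrocyte, 5 and 9 of 10 astrocyte, 8 and 6 of 10 microglia, 5 and 6 of 6 blood cell and 8 and 9 of 13 mural cell genes. Cldn5 had 5.42 ± 1.09 (adjusted p = 0.00126) and 4.10 ± 1.28 (adjusted p = 0.0115), Flt1 4.97 ± 1.03 (adjusted p = 0.00160) and 4.88 ± 0.92 (adjusted p = 0.000200), and Ly6c1 5.17 ± 0.99 (adjusted p = 0.000787) and 5.00 ± 1.03 (adjusted p = 0.000448), all on the log2 scale. Pecam1 had 2.64 ± 0.90 (adjusted p = 0.0390) and 4.08 ± 0.83 (adjusted p = 0.000401). Slc2a1 had 0.79 ± 0.57 and 0.97 ± 0.53, and Egfl7 -0.27 ± 0.42 and 0.11 ± 0.28. The RBP4 call for Pecam1 was lost with the pool as a block (adjusted p = 0.0790). Without RBP4 ST replicate 2, 6 members were called, and without RBP4 ST replicate 4, 8. Without VGAT ST 1 and 2, 7 were called, with Cldn5 lost. Of all genes called 85.6% and 70.2% were higher, and 60.4% and 49.9% with TMM factors, with the median of all genes at 0.27 and 0.39 against 0.03 in both.

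Between the lines, few members differed. In TRAP 2 of 10 were higher in the RBP4 line, where 28.0% of 16898 genes differed in either direction. Egfl7 had a log2 difference of 0.92 ± 0.29 (adjusted p = 0.0163) and Pecam1 of 2.40 ± 0.88 (adjusted p = 0.0407). Pecam1 had 10 to 43 counts in the RBP4 TRAP libraries and 2 to 4 in the VGAT ones, with no overlap. Both calls were lost without VGAT pool 2, and Pecam1 without any of RBP4 pools 1, 4 and 5 and VGAT pools 4 and 5. The change from WCH to TRAP, compared between lines in one fit, was called for none of the 10 members (lowest adjusted p = 0.228), where 12.6% of all genes were called, so the lines were not shown to differ in the depletion of any member.

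In SNF every RBP4 library had less Cdh5 than every VGAT library (0.751 to 1.85 cpm against 1.90 to 4.80 cpm), but the difference was not called (log2 difference -0.87 ± 0.54, unadjusted p = 0.114). In WCH, SNF and ST, and in the change from SNF to ST, no member was called between lines by edgeR's quasi-likelihood test, its likelihood ratio test or DESeq2, and none had an unadjusted p below 0.05. Of all genes 0.0118%, 0.0169%, 0.325% and 0% were called in these comparisons, respectively. The intervals were wide. Over members, the log2 difference less and plus 2 standard errors reached from -1.74 to 3.07 in WCH, from -2.59 to 1.76 in SNF and from -2.09 to 2.16 in ST. Of the 55 genes called in ST 18.2% were higher in the RBP4 line, and 34.9% with DESeq2 size factors.

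Genes around the members in the same pathways were read from lists. Of 26 other endothelial genes 25 were tested within each line. In TRAP against WCH 9 fell and none rose in the RBP4 line, and 15 fell and 2 rose in the VGAT line. That is 36.0% and 60.0% lower, against 31.5% and 41.8% of all genes, so the RBP4 share was near that of all genes. Ly6a, a surface antigen of the Ly6 family like Ly6c1, fell by 3.21 (adjusted p = 0.00423) in the RBP4 line, and Mmrn2, an extracellular protein of vessels, by 3.03 (adjusted p = 0.000672) in the VGAT line. Those that rose in VGAT TRAP were Nos3, the endothelial nitric oxide synthase (0.94, adjusted p = 0.0245), and Ramp2, a receptor partner of calcitonin-like receptors (0.52, adjusted p = 0.0285). In ST against TRAP 21 and 23 of 25 rose, where 26.0% and 37.5% of all genes did. In ST against SNF 10 rose in the RBP4 line, among them the TIE2 partner Tie1 (2.89, adjusted p = 0.0424). In the VGAT line 9 rose and Cd34, a sialomucin also found on blood progenitors, fell (-0.91, adjusted p = 0.00749). Of all genes 5.64% (RBP4) and 16.3% (VGAT) rose in that comparison, and 11.2% fell in the VGAT line.

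Of 16 blood-brain barrier transport and junction genes, 6 fell and 1 rose in RBP4 TRAP against WCH, and 11 fell and 1 rose in the VGAT line. The shares that fell, 37.5% and 68.8%, stand beside 31.5% and 41.8% of all genes, so that of the RBP4 line was near the background. Abcb1a, which encodes the efflux pump P-glycoprotein, fell by 2.89 (adjusted p = 0.00515) in the RBP4 line, and the organic anion transporter Slco1a4 by 2.89 (adjusted p = 0.00870) and 4.26 (adjusted p = 3.87e-05). The exception in both was Bsg, a partner of lactate transporters that is widely expressed, which rose by 0.93 (adjusted p = 0.0326) and 1.01 (adjusted p = 2.68e-05). In ST against TRAP 13 and 15 of 16 rose, where 26.0% and 37.5% of all genes did. Slco1a4 rose by 5.35 (adjusted p = 2.94e-05) and 6.34 (adjusted p = 1.04e-07). In ST against SNF 2 rose in the RBP4 line, where 5.64% of all genes did. In VGAT pools 2 rose and 3 fell, where 16.3% of all genes rose and 11.2% fell, so the VGAT counts were near those shares. The junction gene Cgnl1 rose in both (3.49, adjusted p = 0.000431, and 2.78, adjusted p = 6.39e-06), and the transferrin receptor Tfrc fell in the VGAT line (-1.10, adjusted p = 8.62e-06). In SNF against WCH 7 rose and the tight junction scaffold Tjp1 fell in the RBP4 line (-0.58, adjusted p = 0.0462), and 9 rose in the VGAT line. Of all genes 13.4% (RBP4) and 19.3% (VGAT) rose there.

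The ligands and co-receptors of Kdr, Flt1, Tek and Robo4 are made by several cell types, neurons among them. Of 13, 6 fell and none rose in RBP4 TRAP against WCH, where 31.5% of all genes fell and 8.37% rose. In the VGAT line 8 fell and 1 rose, where 41.8% of all genes fell and 21.0% rose. Angpt2, a ligand of Tek, fell by 2.51 (adjusted p = 0.00516) in the RBP4 line, and Angpt1 by 2.33 (adjusted p = 2.70e-07) in the VGAT line. Vegfb, a ligand of Flt1, was the gene that rose in VGAT TRAP (1.51, adjusted p = 2.39e-05). In ST against SNF none of the 13 was called in the RBP4 line by edgeR (lowest adjusted p = 0.0610). In the VGAT line 6 fell and 1 rose, where 11.2% of all genes fell and 16.3% rose. There Slit2, a secreted ligand of roundabout receptors, fell by 1.30 (adjusted p = 1.99e-06). Mural cell genes fell in TRAP against WCH for 10 of 13 in both lines, with Tagln rising in the VGAT line (1.83, adjusted p = 2.10e-06). In ST against SNF, 4 rose (RBP4) and 3 rose (VGAT), where 5.64% and 16.3% of all genes did. They were led by the smooth muscle genes Myh11 (4.61, adjusted p = 0.00129) and Acta2 (4.06, adjusted p = 0.00296) in RBP4 pools and by Acta2 in VGAT pools (2.19, adjusted p = 0.00353).

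Near-identical and related genes were looked at for shared reads. Ly6c2, the close copy of Ly6c1, had 0 counts in all RBP4 TRAP libraries, but not in all libraries of any other group, ST included. Reads that could not be placed uniquely were not counted, so Ly6c1 levels are uncertain by what that copy took. Slc2a1 shares 105 exon bases with the antisense gene Gm12868, whose mean was at most 0.0622 cpm in any group.

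Genes with the profile most like that of the members were named from 14007 genes averaging 1 cpm or more, by Pearson correlation with the members' mean z score of log2(cpm + 1). Over the 8 group means the closest 5 were Vwa1 (r = 0.993), Wdfy4 (0.991), Vwf (0.989), Emcn (0.988) and Ahnak (0.986). Vwf, the clotting factor of endothelial granules, and Emcn, a sialomucin of vessels, were in the list of other endothelial genes. Over the deviations of the 40 libraries from their group means they were Tie1 (r = 0.960), Pglyrp1 (0.953), Adgrl4 (0.947), Ly6a (0.937) and Adgrf5 (0.935). Without the 2 most extreme libraries, RBP4 ST replicate 2 and VGAT ST replicate 1, these were 0.907, 0.893, 0.900, 0.902 and 0.896. The points share pools, and the 8 means share 4 fractions. Among the members, the correlation of each with the other 9 over the 40 deviations ran from 0.727 for Cdh5 to 0.955 for Flt1, and without the 2 libraries from 0.408 for Cdh5 to 0.915 for Flt1.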

How the data were processed

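RNA-seq libraries were made with a low-input, unstranded kit and read as short single reads. Per the study's methods, the authors aligned reads with STAR 2.0.4b and counted uniquely aligned, unambiguous reads per gene with featureCounts 1.4.5 (Subread). The deposited files give the count, CPM and RPKM of each gene as the authors computed them. The raw counts were used and no deposited CPM or RPKM value. File coordinates match GRCm38, and symbols came from GENCODE M21 for 40340 of 41388 genes. Mitochondrial, rRNA and tRNA genes (390) were left out, as in the study, and cpm recomputed. Genes at 0.5 cpm or more in at least 3 libraries were tested with edgeR 4.0.16 in R 4.3.3 (quasi-likelihood test, library sizes with no further factor, Benjamini-Hochberg adjustment over all genes tested, threshold 0.05). One fit was made per line, 1 over WCH, TRAP and ST of both lines and 1 over all 40 libraries for SNF between lines. In the fit over WCH, TRAP and ST the filter counted TRAP and ST libraries only. There Cldn5, Cdh5, Robo4, Tek and Kdr reached 0.5 cpm in fewer than 3 TRAP libraries, so they were tested only because of their ST levels. DESeq2 1.42.0, TMM and DESeq2 size factors, a likelihood ratio test, no filter, no genes left out, a block and left-out pools were alternatives. The procedure was tested on simulated data.

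The 10 members and all lists were chosen with earlier results of these data known. Every member was counted in every comparison. From each other list the 2 highest and 2 lowest genes averaging 1 cpm or more, and genes called against most of their list, could be named.

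The 4 libraries of 1 number in a line came from 1 pool, so numbers pair libraries within a line. Deviations from group means of same-numbered libraries correlated at a mean of 0.411 (ST and SNF), 0.289 (TRAP and WCH), 0.226 (SNF and WCH) and -0.0177 (ST and TRAP) in the RBP4 line, and at 0.483, 0.340, 0.357 and 0.0603 in the VGAT line. Between lines equal numbers pair no pools. Pools were separate groups of mice, so p-values measure the spread between pools. Every fit held several fractions, ST among them, and estimated 1 spread per gene over all its libraries. The median span of a member, highest over lowest library, was 34.9 fold in RBP4 ST and 2.07 fold in RBP4 WCH. In the VGAT line it was 13.0 and 2.63 fold. P-values of comparisons without ST thus carry some ST spread, and those with ST may understate it. Only fits with the pool as a block used the pairing.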

Additional observations from a re-analysis of the deposited data

Results flagged for a closer look

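A search for libraries that stood apart covered 92 sets of 5 libraries, of single genes or gene lists, but not every list in every group. The oligodendrocyte and astrocyte sums in RBP4 TRAP, high in 1 library (5642 and 3393 cpm), were not among the sets searched. Of the 92 sets, 16 had 1 library far from the other 4. The cut used flags about 1 in 20 sets by chance only where values are normally distributed and sets independent. Here the values were cpm levels, some resting on very few counts, and many sets shared libraries. The number flagged therefore cannot be compared with that rate. Several of the 16 were RBP4 ST replicate 2. It held 113 cpm of Flt1, 35.4 cpm of Pecam1, 11.4 cpm of Cdh5, 28.9 cpm of Tek and 53.3 cpm of Kdr. In that library the 10 members summed to 476 cpm, the other endothelial genes to 921 cpm and the mural cell genes to 830 cpm. The mural cell genes of VGAT ST replicate 1 stood apart as well, at 361 cpm.

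The others were single genes at low counts or in single libraries. Cdh5 had 4.80 cpm in VGAT SNF replicate 3, Robo4 0.0972 cpm in VGAT TRAP replicate 5 (2 counts), Kdr 0.536 cpm in RBP4 TRAP replicate 1 and Tek 1.29 cpm in RBP4 TRAP replicate 5. In WCH, Tek was low in RBP4 replicate 4 (0.328 cpm), Slc2a1 high in RBP4 replicate 5 (20.4 cpm) and Ly6c1 high in VGAT replicate 1 (8.32 cpm).

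The effect of the pulldown differed between SNF and the whole homogenate for 8 members in both lines, by the edgeR test of that difference. Of all genes 17.1% (RBP4) and 34.7% (VGAT) were called higher, with glial, blood cell and mural cell genes among them. On the log2 scale, ST over SNF less TRAP over WCH was 5.42 for Cldn5, 4.97 for Flt1, 2.64 for Pecam1, 3.94 for Cdh5, 5.41 for Robo4, 4.27 for Tek, 4.68 for Kdr and 5.17 for Ly6c1 in RBP4-TRAP. In VGAT-TRAP it was 4.10 for Cldn5, 4.88 for Flt1, 4.08 for Pecam1, 3.36 for Cdh5, 5.2 for Robo4, 3.74 for Tek, 3.52 for Kdr and 5.00 for Ly6c1.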

How the results depend on the processing

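Of the counts of called members under alternatives, 226 stayed within 1.5 times the count reported and 25 did not. SNF against WCH gave 0 calls for RBP4 with no genes left out, and for VGAT 9 with DESeq2, 3 with no genes left out and 3 in a fit of all 40 libraries. ST against SNF gave 7 for RBP4 in the fit of all 40 libraries and 1 without RBP4 ST replicate 2, and for VGAT 1, a lower one, without VGAT ST libraries 1 and 2. There Cldn5 turned to -0.66 and Slc2a1 to -1.10 on the log2 scale. These settings without single ST libraries were chosen after seeing the data. Leaving out a pool gave 2 to 8 calls (TRAP against WCH), 0 to 2 (SNF against WCH), 1 to 5 (ST against SNF), 9 to 10 (ST against TRAP) and 6 to 8 (difference of differences) for RBP4. For VGAT these were 6 to 7, 3 to 5, 0 to 5, 10 to 10 and 7 to 8. Between lines TRAP gave 0 to 2 and the others 0. The cause of these shifts was not tested. With the pool number as a replicate block the counts were 8, 2, 4, 9 and 7 for RBP4 and 8, 7, 3, 10 and 8 for VGAT in the same order, and no call changed beyond those given in the report. Between lines, where equal numbers pair no pools, a block on the number left the counts at 2 in TRAP and 0 elsewhere. Of the values of single members, 2395 kept their call or lack of one, 73 lost the call, 40 gained it and 2 reversed. Values that were not called could still change sign. With pools left out in turn, the Cldn5 difference between lines in ST ran from -1.67 to 0.68 on the log2 scale. At 1 to 5 counts per TRAP library for Cldn5, 0 to 6 for Cdh5 and 0 to 3 for Robo4, depth limits the size of their depletion.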
